A study of Rattus norvegicus with 12 samples.

Results

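The genes described here encode the proprotein convertase Pcsk1, other enzymes that cut or trim precursor proteins in the secretory pathway, and a chaperone. They are 9 of the 32623 genes in the files: Pcsk1, Furin, Pcsk5, Pcsk6, Pcsk7, Mbtps1, Cpe, Cpd and Scg5. They were chosen by name, with the levels of Pcsk1 in these libraries already known, so the values of Pcsk1 are a description and carry no test. The files hold 1 row for each of the 9 symbols. After a filter on low counts, 8 of the 9 could be tested, and Scg5 could not.

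RNA with poly(A) tails was sequenced from rat cells that the labels call primary hepatic stellate cells. Stellate cells lie along the liver sinusoid and store vitamin A. The cells came from cirrhotic rats, in which the disease had been brought on by long inhalation of CCl4, and were isolated on a density gradient. All groups share this origin and 24 h of culture beneath Transwell inserts, whose porous floor lets secreted products through and keeps cells back. The inserts held 15000 viable human amniotic epithelial cells in the hAEC group, 15000 viable human amniotic mesenchymal stromal cells in the hAMSC group, or vehicle (Veh). Each group had 4 libraries, named here by the numbers in the labels: hAEC 3, 4, 11 and 12, hAMSC 7, 8, 15 and 16, and Veh 17, 18, 19 and 20. The labels give no age of the rats, and whether the 4 libraries of a group stem from different animals or cultures is not stated. The p-values below therefore reflect how far these libraries scatter, and that scatter may be technical.

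Total counts ran from 27382724 to 34922211 per library. The libraries formed 2 sets of 6 that crossed the groups, with 2 libraries of each group in each set, and 73.6% of the variance in the 2000 genes that varied most lay on the principal component that separates them. Set A is libraries 3, 4, 7, 8, 17 and 18, and set B is libraries 11, 12, 15, 16, 19 and 20. The labels do not name the sets, which were read from the data, so differences between them are given without a test. Against the labelled cell type, all 11 macrophage markers found in the files were tested, with a median of 899 CPM, counts scaled to the size of the library. Their summed level was 20729 to 23253 CPM in set A and 41336 to 44090 CPM in set B. Most of that sum was Gpnmb, at 14013 to 15955 CPM in set A and 24427 to 26691 CPM in set B. Lyz2, Adgre1, Csf1r, Mrc1 and Vsig4 were also higher in set B. Cd14 was lower there, at 167 to 217 CPM against 932 to 1080 CPM in set A, as was Marco. Cd68, Cd163 and Clec4f overlapped between the sets. Lrat, the enzyme that esterifies vitamin A for storage, was at 0 to 0.371 CPM and Des, a stellate cell filament, at 0.172 to 2.42 CPM. Col1a1, the fibrillar collagen that activated stellate cells secrete, was at 0.659 to 5.21 CPM. Of the 10 stellate and myofibroblast markers, 9 lay between 0 and 8.37 CPM in all libraries. The remaining marker, Reln, a secreted glycoprotein, was at 54.8 to 92.2 CPM in set A and 6.71 to 15.4 CPM in set B. The cells are called by their label only. Of the 11 macrophage markers, the haemoglobin receptor Cd163 rose with hAMSC against Veh, by 0.61 on the log2 scale (SE 0.09, adjusted p = 0.0277, edgeR), and no other passed; its part in the results below was not tested.

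Proprotein convertases are calcium-dependent serine proteases that cut precursors after basic residues. Pcsk1 encodes PC1, which works in the regulated granules of endocrine and nerve cells and cuts prohormones such as proopiomelanocortin; its RNA is also found in some macrophages. Furin, Pcsk5, Pcsk6 and Pcsk7 encode convertases of the constitutive route, which process growth factors, receptors and adhesion proteins. Mbtps1 encodes site-1 protease, which cuts membrane-bound transcription factors in the Golgi, and the carboxypeptidases encoded by Cpe and Cpd remove the basic residues that a convertase leaves behind. Scg5 encodes 7B2, a chaperone of the related convertase PC2.

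Pcsk1 RNA was higher with hAMSC than with Veh in both library sets, and differed far more between the sets than between the groups. In set A, Pcsk1 was at 198 and 187 CPM in Veh 17 and 18, at 201 and 204 CPM in hAEC 3 and 4, and at 246 CPM in each of hAMSC 7 and 8. In set B it was at 19.1 and 20.2 CPM in Veh 19 and 20, at 19.4 and 21.6 CPM in hAEC 11 and 12, and at 27.4 and 26.1 CPM in hAMSC 15 and 16. The hAMSC libraries were the highest in each set and did not overlap with the other groups, while hAEC and Veh overlapped in set B and hAEC lay just above Veh in set A. All levels here are scaled by the trimmed mean of M-values (TMM). In such bulk RNA, fewer cells of a type and less RNA per cell cannot be told apart.

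As a description, the fitted log2 difference of Pcsk1 between hAMSC and Veh with the set in the model was 0.39 (SE 0.04, n = 4 per group), which is 1.31-fold. The same difference was 0.36 in set A and 0.44 in set B, each from 2 libraries per group. For hAEC against Veh the log2 difference was 0.07 (SE 0.04), and for hAEC against hAMSC it was -0.32 (SE 0.04). The comparisons of hAEC and of hAMSC with Veh share the same control libraries. Over the groups, set B stood lower than set A by a log2 difference of -3.26 (SE 0.04), a level 9.61-fold higher in set A.

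**Figure D1:**
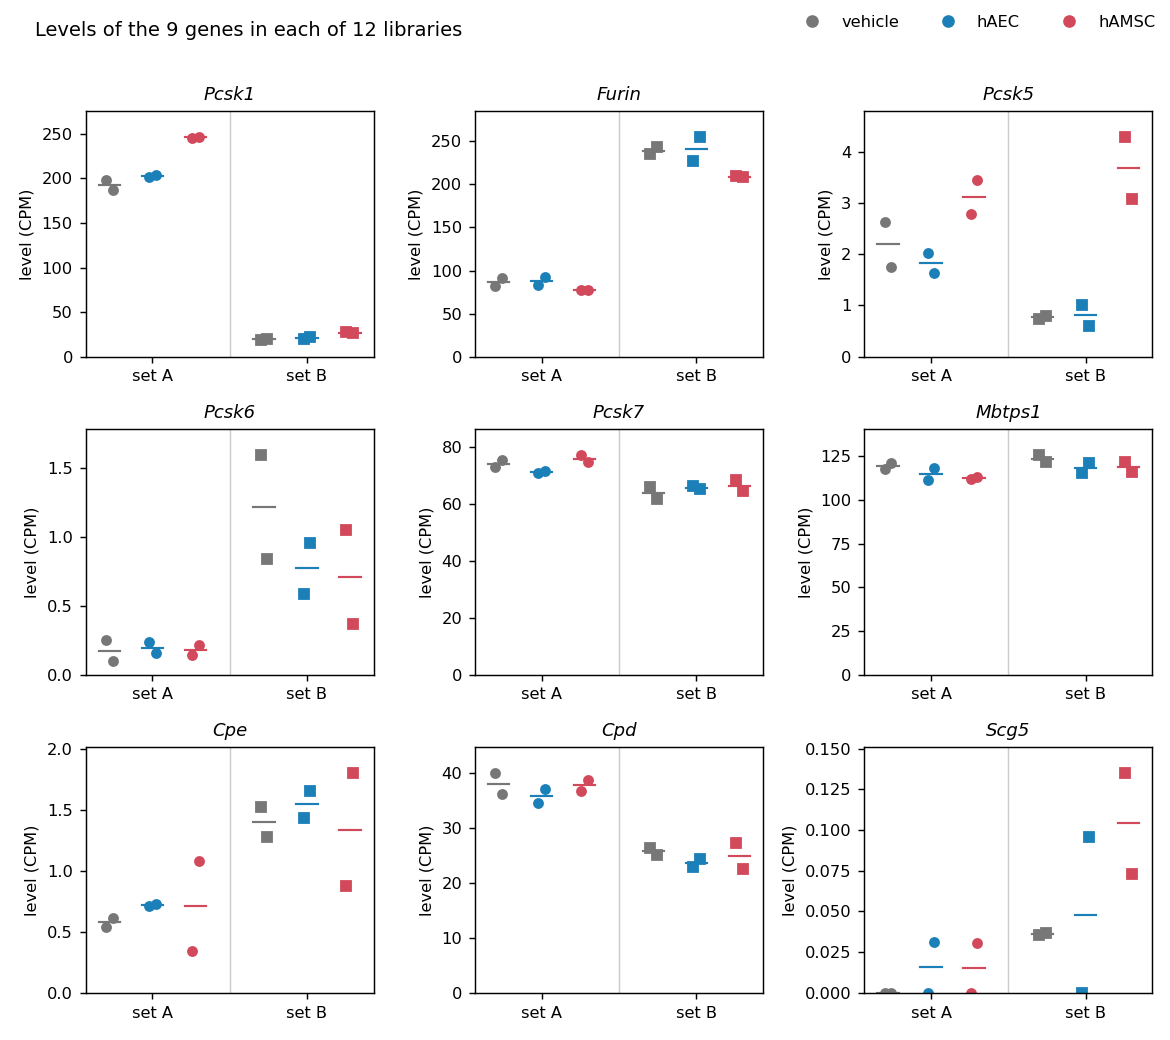
Level of each of the 9 genes in CPM, on linear axes that start at 0 and differ between panels, with each point a library, circles for set A, squares for set B, colours for the groups and a bar at the mean of the 2 libraries. Pcsk1 lay at 187 to 246 CPM in set A and 19.1 to 27.4 CPM in set B, while Mbtps1 stayed between 111 and 125 CPM.

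Furin, the convertase that cycles between the trans-Golgi network and the cell surface, was lower with hAMSC in both sets, but did not pass the test over all genes. In set A, Furin was at 82.6 and 91.7 CPM in Veh 17 and 18, at 83.2 and 93.0 CPM in hAEC 3 and 4, and at 77.7 and 77.1 CPM in hAMSC 7 and 8. In set B it was at 234.6 and 243 CPM in Veh 19 and 20, at 226 and 255 CPM in hAEC 11 and 12, and at 209 CPM in each of hAMSC 15 and 16. The hAMSC libraries were below all others of their set, and Veh and hAEC overlapped in both sets.

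For hAMSC against Veh, the log2 fold change of Furin was -0.18 (SE 0.05, 95% interval -0.28 to -0.08), with an adjusted p of 0.147 by the quasi-likelihood test of edgeR with Benjamini-Hochberg adjustment over 13539 genes. The value was -0.16 in set A and -0.20 in set B. For hAEC against hAMSC it was 0.20 (SE 0.05, adjusted p = 0.172, edgeR), and for hAEC against Veh 0.01 (SE 0.05, adjusted p = 0.99, edgeR; 95% interval -0.09 to 0.11). DESeq2 gave an adjusted p of 0.0236 for hAMSC against Veh and of 0.0191 for hAEC against hAMSC; over all alternatives these ran from 0.0236 to 1 and from 0.0191 to 1. Between the sets Furin went the other way from Pcsk1, at 2.72-fold higher in set B, a log2 difference of 1.44 (SE 0.04).

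Pcsk1 and Furin thus stood in different proportion in the 2 sets. In set A there were 2.04 to 2.40 Pcsk1 reads for each Furin read with Veh, 2.19 to 2.42 with hAEC and 3.16 to 3.19 with hAMSC. In set B there were 0.0812 to 0.0833 with Veh, 0.0850 to 0.0855 with hAEC and 0.125 to 0.131 with hAMSC. Within each set the hAMSC libraries had the highest ratios. The ratio is of reads, not of molecules, since gene lengths were not used, and it carries the choice of Pcsk1 by its values.

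**Figure D2:**
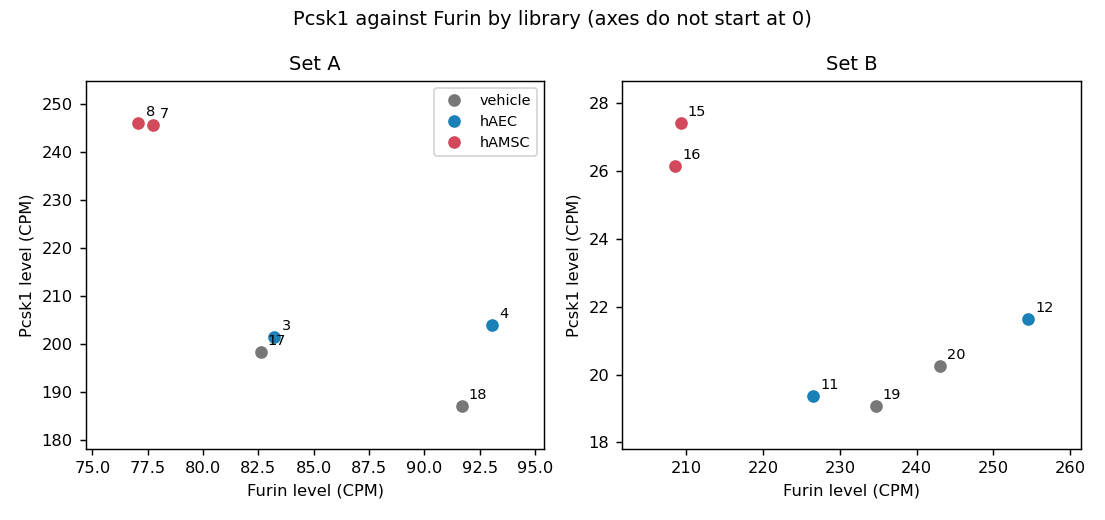
Pcsk1 level against Furin level in CPM, with a panel for each library set, linear axes that do not start at 0, and each point a library labelled by its number and coloured by its group. In each panel the hAMSC libraries have the highest Pcsk1, at 246 CPM in set A and 26.1 and 27.4 CPM in set B, and the lowest Furin.

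Pcsk5, whose product acts at the cell surface and in the matrix on growth factors of the TGF-beta family and on integrins, had the largest fitted difference of the 8 tested genes between hAMSC and Veh, at a low level. In set A, Pcsk5 was at 2.64 and 1.75 CPM in Veh 17 and 18, at 2.02 and 1.64 CPM in hAEC 3 and 4, and at 2.78 and 3.44 CPM in hAMSC 7 and 8. In set B it was at 0.741 and 0.804 CPM in Veh 19 and 20, at 1.01 and 0.605 CPM in hAEC 11 and 12, and at 4.28 and 3.08 CPM in hAMSC 15 and 16. The hAMSC libraries were the highest in both sets, and the gap to the others was wider in set B. These levels rest on 19 to 127 counts a library.

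For hAMSC against Veh, the log2 fold change of Pcsk5 was 1.36 (SE 0.33, 95% interval 0.64 to 2.07), a 2.56-fold difference with an adjusted p of 0.147 (edgeR). It was 0.52 (SE 0.26) in set A and 2.25 (SE 0.34) in set B, and within set B alone the adjusted p was 0.00986 (edgeR). Without hAMSC 7 it was 1.62 with an adjusted p of 0.0377 (edgeR), and over the alternatives that gave an adjusted p it ran from 0.00986 to 1; DESeq2 gave none. For hAEC against hAMSC the value was -1.50 (SE 0.33, adjusted p = 0.156, edgeR), with -0.77 in set A and -2.18 in set B; DESeq2 gave an adjusted p of 0.00269, and edgeR gave 0.014 within set B and 0.0259 without hAMSC 7, in a range over all alternatives of 0.00269 to 1. For hAEC against Veh it was -0.14 (SE 0.34, adjusted p = 0.98, edgeR; 95% interval -0.88 to 0.59). The difference of the hAMSC effect between the sets, set B minus set A, was 1.74 (SE 0.44, adjusted p = 0.138, edgeR), which did not pass; 0.199% of tested genes passed that test, 0.17% with a higher and 0.0295% with a lower effect in set B. With no filter on low counts its adjusted p was 0.00303, and over all alternatives it ran from 0.00303 to 0.482.

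The summed levels of endothelial, hepatocyte and lymphocyte markers were also higher with hAMSC in set B, without overlap with the other groups. How often all genes do so in set B alone was not computed. Those of macrophage, stellate and myofibroblast, cholangiocyte and neuroendocrine markers with hAMSC overlapped with Veh in that set. All 8 of 8 endothelial markers had a log2 fold change above 0 with hAMSC against Veh, as did 48.9% of all tested genes, and 0 of 8 passed the test. With hAEC against Veh 0 of 8 were above 0, beside 48.5% of all tested genes. For hAEC against hAMSC 0 of 8 were above 0, beside 50%. The summed level of the endothelial markers in set B was 300.3 to 326 CPM with hAMSC, against 261 to 267 CPM with Veh and 259 to 262 CPM with hAEC. In set A it was 478 to 584 CPM with hAMSC, 548 to 566 CPM with Veh and 488 to 494 CPM with hAEC. Most of the endothelial sum in set B was Tie1, at 175 to 198 CPM there. The log2 fold change of Tie1 for hAMSC against Veh was 0.00 (SE 0.05). The 7 hepatocyte markers summed in set B to 727 to 819 CPM with hAMSC, 671 to 687 CPM with Veh and 692 to 704 CPM with hAEC. In set A they summed to 553 to 651 CPM, 519 to 583 CPM and 588 to 591 CPM. The 6 lymphocyte markers summed in set B to 1.89 to 2.20 CPM with hAMSC, 1.24 to 1.68 CPM with Veh and 1.30 to 1.43 CPM with hAEC. In set A they summed to 4.47 to 6.24 CPM, 5.34 to 6.05 CPM and 3.88 to 4.89 CPM. With hAMSC against Veh, 1 of 4 tested hepatocyte markers and 2 of 2 tested lymphocyte markers had a log2 fold change above 0, and none passed by edgeR. The hepatocyte sum was nearly all Tf, at 509 to 815 CPM over the libraries, beside 0.891 to 8.08 CPM for Alb. Tf was the hepatocyte marker above 0, at 0.17 (SE 0.06). Alb had -1.04 (SE 0.64), Ttr -1.15 (SE 0.67) and Serpina1 -0.73 (SE 0.49), so the sum does not speak for the list. No marker of these 3 lists was at 0 in all libraries, and their part in the Pcsk5 result was not tested.

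The promoters of Pcsk5, which had the widest group difference among the 8 tested genes of the 9, and of Mbtps1, which varied least between libraries relative to its mean, are printed for comparison, 250 bases before to 50 after the start as given by RefSeq on GRCr8. RefSeq's table held this window for 6 of the 9 genes. Capitals mark GC boxes (GGGCGG on either strand). The Pcsk5 window is chr1:224694298-224694597 on the minus strand, and the Mbtps1 window is chr19:64521293-64521592 on the minus strand.
Pcsk5: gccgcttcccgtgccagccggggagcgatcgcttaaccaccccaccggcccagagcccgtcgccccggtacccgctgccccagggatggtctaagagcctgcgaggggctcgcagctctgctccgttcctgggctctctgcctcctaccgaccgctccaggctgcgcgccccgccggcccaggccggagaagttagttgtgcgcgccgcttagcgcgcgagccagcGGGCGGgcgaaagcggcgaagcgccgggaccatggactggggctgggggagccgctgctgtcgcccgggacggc
Mbtps1: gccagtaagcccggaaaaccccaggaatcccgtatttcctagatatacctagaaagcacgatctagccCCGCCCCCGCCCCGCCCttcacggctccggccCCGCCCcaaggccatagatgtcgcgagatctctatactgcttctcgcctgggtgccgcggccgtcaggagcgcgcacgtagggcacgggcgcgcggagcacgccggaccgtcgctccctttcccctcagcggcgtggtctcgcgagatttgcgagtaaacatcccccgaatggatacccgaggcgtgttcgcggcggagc
The Pcsk5 window is 74% G and C with 1 GC box, and the Mbtps1 window is 65.7% G and C with 4 GC boxes. A GC box stands in 33.1% of all 33469 rat promoter windows of this length. The motif TGACG, the core of a cyclic AMP response element, was found 1 time in the Mbtps1 window, and stands in 21.2% of all windows on either strand. These are matches of letters, and no factor's binding was measured.

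Pcsk6, Pcsk7, Mbtps1, Cpe and Cpd did not pass in any comparison by edgeR. Pcsk6 encodes PACE4, a convertase that is bound to the extracellular matrix. Its level was 0.0970 to 0.253 CPM in set A and 0.367 to 1.59 CPM in set B, from 3 to 45 counts, and set B stood 4.72-fold higher. The log2 fold change of Pcsk6 was -0.39 (SE 0.42) with hAEC and -0.51 (SE 0.42) with hAMSC against Veh, with groups that overlapped in both sets. At so few counts a change of that size could not be told from the spread.

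Pcsk7 encodes a convertase that sheds the transferrin receptor and that recycles between the surface and the Golgi. Pcsk7 was at 72.9 and 75.4 CPM in Veh 17 and 18 and at 66.2 and 61.9 CPM in Veh 19 and 20. It was at 70.9 and 71.7 CPM in hAEC 3 and 4 and at 66.6 and 65.2 CPM in hAEC 11 and 12. It was at 77.2 and 74.7 CPM in hAMSC 7 and 8 and at 68.4 and 64.5 CPM in hAMSC 15 and 16. The log2 fold changes against Veh were -0.01 (95% interval -0.09 to 0.08) with hAEC and 0.04 (95% interval -0.04 to 0.13) with hAMSC.

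Mbtps1, the site-1 protease that releases SREBP and ATF6 from the membrane, was at 111 to 125 CPM in all 12 libraries, and the fitted log2 difference of set B from set A was 0.06 (SE 0.03). Against Veh, the log2 fold change of Mbtps1 was -0.06 (95% interval -0.14 to 0.02, adjusted p = 0.92, edgeR) with hAEC and -0.07 (95% interval -0.15 to 0.01, adjusted p = 0.557, edgeR) with hAMSC.

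Cpd, the carboxypeptidase of the trans-Golgi network, was at 34.6 to 39.9 CPM in set A and 22.5 to 27.3 CPM in set B, a log2 difference of -0.59 (SE 0.05) for set B against set A. Its log2 fold change against Veh was -0.10 (95% interval -0.23 to 0.03) with hAEC and -0.03 (95% interval -0.16 to 0.10) with hAMSC. Cpe, the carboxypeptidase of regulated granules, was at 0.344 to 1.80 CPM, from 12 to 52 counts, and set B stood 2.13-fold higher. Its log2 fold change was 0.21 (SE 0.32) with hAEC and 0.09 (SE 0.32) with hAMSC against Veh, and the groups overlapped in at least 1 set. Scg5 had 0 to 4 counts a library, at 0 to 0.135 CPM, near the 0.0860 to 0.110 CPM that 3 counts stand for, so no fold is given.

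Across the 7 tested genes other than Pcsk1, 0 passed the test of edgeR with hAEC against Veh, where 0% of all tested genes passed. In that comparison 0 of the 7 and 759 of all tested genes had an unadjusted p under 0.05, and DESeq2 called 2 genes in all. Of the same 7, 0 passed with hAMSC against Veh, where 0.236% of tested genes did, 0.155% higher and 0.0812% lower, and 0 with hAEC against hAMSC, where 0.0222% did, all of them lower with hAEC. In each of these comparisons 2 of the 7, Furin and Pcsk5, had an unadjusted p under 0.05, as did 9.68% of all tested genes with hAMSC against Veh and 6.37% with hAEC against hAMSC. For hAEC against hAMSC, the log2 fold changes of Pcsk6, Pcsk7, Mbtps1, Cpe and Cpd lay between -0.07 and 0.12. Of these 7 genes, Furin was lower with hAMSC than with Veh without overlap in either set, as were 4.49% of tested genes, and Pcsk5 was higher without overlap in either set, as were 3.94%. For hAEC against hAMSC, Furin was higher without overlap in either set, as were 3.69% of tested genes, and Pcsk5 lower, as were 3.83%. For hAEC against Veh, 0 of the 7 were higher and 0 lower in this way, beside 4.39% and 3.6% of tested genes. Between the sets, Furin, Pcsk6 and Cpe stood more than 2-fold higher in set B, as did 9.71% of tested genes, and Pcsk1 stood more than 2-fold lower there, as did 9.98%. In either direction, 19.7% of tested genes differed more than 2-fold between the sets.

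**Figure D3:**
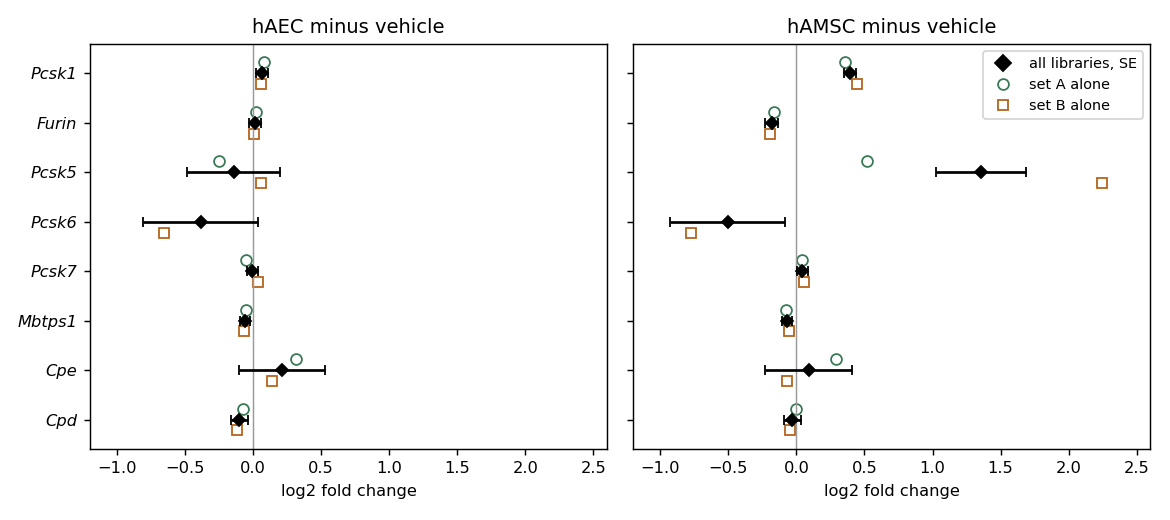
Log2 fold change of the 8 tested genes with hAEC and with hAMSC against vehicle: diamonds give the fit over all libraries with its SE as bars, circles set A alone and squares set B alone. With hAMSC, Pcsk5 lies at 1.36 and Furin at -0.18, and Pcsk6 has no circle because it did not pass the count filter in set A.

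Other genes of the pathway were taken from lists made for this work. Over 8 lists, 101 of 103 listed genes were in the files and 64 were tested, and 0 passed in any of the 3 comparisons by edgeR. An unadjusted p under 0.05 was found for 4 of the 64 with hAEC against Veh, 11 with hAMSC against Veh and 10 with hAEC against hAMSC. Over all 13539 tested genes there were 759 (5.61%), 1310 (9.68%) and 862 (6.37%). The medians below are of log2 fold changes with hAEC and then with hAMSC against Veh, and the value given for a single gene is its log2 fold change. Among other convertases, Pcsk2 was at 0 in all libraries and Pcsk4 had at most 3 counts, so neither could be tested. Of 8 trimming and end modification enzymes, 6 were tested, and their median log2 fold change was 0.00 with hAEC and 0.08 with hAMSC against Veh, beside -0.0032 and -0.0027 for all tested genes. Cpm, a carboxypeptidase of the cell surface, had the smallest p, with 0.11 (SE 0.05, adjusted p = 0.502, edgeR) for hAMSC against Veh. Cpz, a secreted carboxypeptidase, had -0.70 (SE 0.47, adjusted p = 0.92, edgeR) for hAEC against Veh, at 0.154 to 0.733 CPM and at most 20 counts a library.

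All 7 genes of signal peptide removal and intramembrane cleavage were tested, with medians of 0.02 and 0.07. Spcs3, a subunit of the signal peptidase, had 0.26 (SE 0.13, adjusted p = 0.905, edgeR) for hAEC against Veh, and Sec11c, a catalytic subunit, had 0.08 (SE 0.05, adjusted p = 0.585, edgeR) for hAMSC against Veh. Of 5 inhibitors and chaperones, 4 were tested, with medians of 0.00 and 0.01. Gbp2, an interferon-induced GTPase that limits furin, had 0.12 (SE 0.07, adjusted p = 0.594, edgeR) for hAMSC against Veh. Serpinb8, a serpin that inhibits furin, had 0.08 (SE 0.05, adjusted p = 0.628, edgeR) for the same comparison.

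The genes listed as prohormone and neuropeptide precursors cut by PC1 or PC2 were at low levels. Of 22 prohormone and neuropeptide genes, all 22 had a mean under 1 CPM, 6 were at 0 in all libraries and 2, Pomc and Vip, were tested. Pomc, the precursor of corticotropin, was at 0.326 to 0.795 CPM, with 0.29 (SE 0.31, adjusted p = 0.992, edgeR) for hAEC against hAMSC. Vip, the precursor of a vasodilator peptide, had 0.94 (SE 0.62, adjusted p = 0.662, edgeR) for hAMSC against Veh. Of 12 granin and dense-core granule genes, 10 had a mean under 1 CPM and 3 were tested. Of these, Ptprn, a membrane protein of the granules, was at 26.4 to 42.6 CPM in set A and 2.87 to 4.01 CPM in set B, in the same order of sets as Pcsk1. Its log2 fold change was -0.49 (SE 0.10, adjusted p = 0.53, edgeR) with hAEC and -0.31 (SE 0.10, adjusted p = 0.271, edgeR) with hAMSC against Veh. Rab27a, a GTPase of granule release, went the other way between the sets, at 10.4 to 13.6 CPM in set A and 55.0 to 60.9 CPM in set B. It had 0.12 (SE 0.06, adjusted p = 0.776, edgeR) for hAEC against hAMSC. Cadps2, the remaining tested gene of this list, was at 0.110 to 0.738 CPM and overlapped between the sets. Of 5 neuroendocrine markers in the files, Snap25 and Neurod1 were at 0 in all libraries and Ncam1 at 0 to 0.220 CPM. Syp, a vesicle membrane protein, was at 0.568 to 1.16 CPM in set A and 6.35 to 8.47 CPM in set B, and Uchl1, a deubiquitinase of neurons, at 1.63 to 3.91 CPM.

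Of 36 furin-family substrates, 34 were in the files and 33 were tested, with medians of -0.02 and 0.00. A log2 fold change above 0 against Veh was found for 12 of 33 with hAEC and 18 of 33 with hAMSC. Of all tested genes, 48.5% and 48.9% were above 0. Sort1, a sorting receptor of the Golgi, had -0.20 (SE 0.04, adjusted p = 0.0961, edgeR) for hAMSC against Veh. Itga6, an integrin chain, had 0.22 (SE 0.05, adjusted p = 0.145, edgeR) for hAEC against hAMSC. Of 10 substrates of site-1 protease, 9 were tested, with medians of 0.02 and 0.03. Gnptab, the enzyme that starts the mannose 6-phosphate tag of lysosomal proteins, had 0.09 (SE 0.03, adjusted p = 0.408, edgeR) for hAMSC against Veh, and Creb3l1, a transcription factor of the secretory route, had -0.28 (SE 0.12, adjusted p = 0.746, edgeR) for hAEC against hAMSC.

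**Figure D4:**
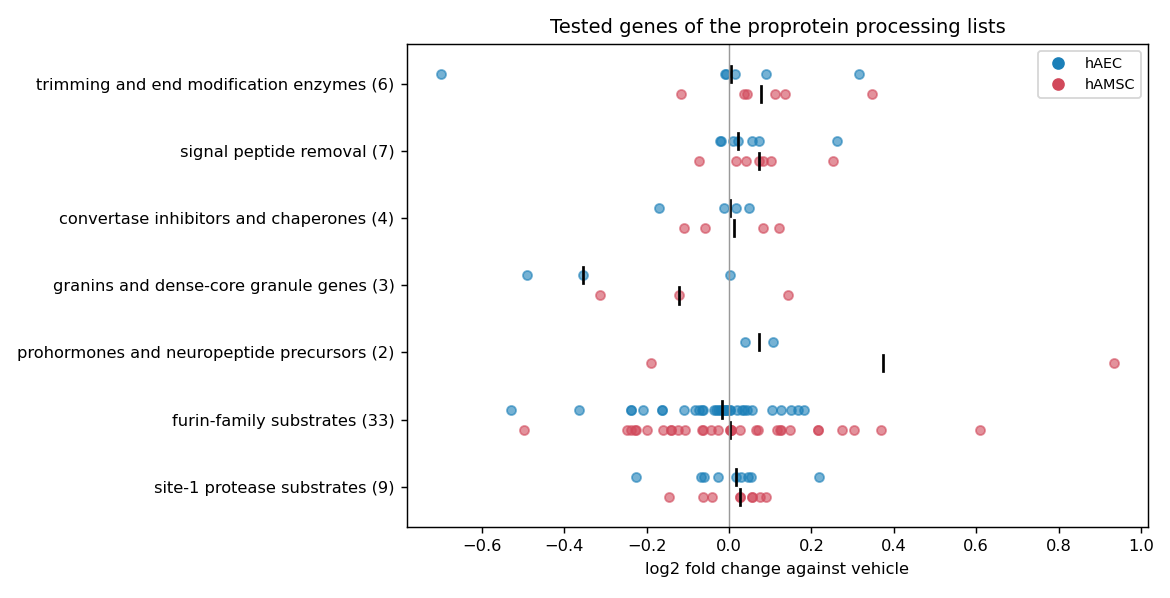
Log2 fold change against vehicle of the tested genes in 7 lists (number of tested genes in brackets), with each point a gene, coloured by co-culture, and a black line at the median. The medians lie near 0 except in the lists with 2 or 3 tested genes, where they reach -0.35 with hAEC for the granule genes and 0.37 with hAMSC for the prohormones.

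The genes whose pattern over the 12 libraries was most like that of Pcsk1 were read from Pearson r of log2 CPM, as a description in which all points share the libraries and the sets. They were Ece1, an endothelin-converting protease, Sdc3, a cell surface proteoglycan, Ly6al, the superoxide dismutase Sod2 and the inhibitory Fc receptor Fcgr2b, each at r = 0.999. With the mean of each set taken off both genes, they were the phosphatase Ptpn1 at 0.965, the adhesion protein Amigo2 at 0.952, Fcgr2b at 0.941, Ece1 at 0.940 and Sod2 at 0.921. After the same step, among the other genes of the processing pathway described here, r with Pcsk1 was 0.839 for Pcsk5 and -0.745 for Furin, and lay between -0.404 and 0.394 for the rest that were tested. Over the 12 libraries without that step, r was -0.995 for Furin and 0.527 for Pcsk5. It was 0.959 for Cpd, 0.908 for Pcsk7, -0.889 for Pcsk6, -0.813 for Cpe and -0.572 for Mbtps1. These values follow both the groups and the sets, and carry no p.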

How the data were processed

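The authors deposited expected counts for each gene, 1 table per library. The submitters' processing notes name RSEM, STAR, Trim Galore, FastQC and limma and the builds rn6 and Rnor_6.0; which tool did which step, and its version, is not given in the sources used here. Whole numbers made up 90.1% of the values. Expected counts divide ambiguous reads between genes, which adds an uncertainty for close paralogs that the tests do not include.

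After rounding, the main test was that of edgeR 4.0.16 (R 4.3.3), with limma 3.58.1 and DESeq2 1.42.0 as alternatives. The default filter kept 13539 of 32623 genes. Libraries were scaled by TMM, with factors of 0.973 to 1.03. The robust quasi-likelihood model held group and library set, over all 12 libraries, with two-sided tests, Benjamini-Hochberg adjustment over all tested genes and a threshold of 0.05. The biological coefficient of variation was 9.91% with the set in the model and 38.9% without it. No 2 libraries agreed within sampling noise (smallest chi-square per degree of freedom 6.24). Intervals cover the spread between libraries. CPM were computed from the TMM-scaled counts, and correlations used log2 CPM with a prior count of 2. The scripts were tested on simulated data.

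The genes and lists were chosen with earlier results of these data known. From each list, up to 3 genes that passed were to be named, or, where none passed, the 2 with the smallest p; the genes most like Pcsk1 were the 5 with the highest r among genes that averaged 5 CPM or more and had no provisional symbol.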

Additional observations from a re-analysis of the deposited data

How the results depend on the processing

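No paired analysis was run, because the labels do not tie libraries of different groups to each other. The main model held the library set instead. Over 25 results for these genes there were 458 alternative values. Of these, 426 kept their direction and, where tested, their side of the threshold, 8 passed the threshold only under the alternative and 24 changed sign. For 3 of the 426, on Pcsk5, Pcsk6 and Cpe with hAMSC against Veh, DESeq2 gave no adjusted p. The total includes Pcsk1, chosen with its levels known, which kept its direction in 19 of 19 alternatives in each comparison. No tested result passed in the main fit, so keeping its side meant not passing again. The fold changes of Pcsk1 kept their sign throughout, at 0.36 to 0.44 for hAMSC against Veh. Sign changes were of values that had not passed the test: Cpe for hAMSC against Veh was -0.0904 by limma voom and -0.0726 within set B, Mbtps1 for hAEC against hAMSC was -0.0115 within set B, and within set B Pcsk5 and Pcsk7 for hAEC against Veh were 0.0605 and 0.0391. With 1 library left out at a time, hAMSC against Veh ran from -0.0772 to 0.0219 for Cpd and -0.252 to 0.306 for Cpe. Likewise hAEC against hAMSC ran from -0.0895 to 0.473 for Cpe, -0.0122 to 0.0275 for Mbtps1 and -0.216 to 0.478 for Pcsk6, and hAEC against Veh from -0.0209 to 0.0456 for Furin, -0.301 to 0.165 for Pcsk5, -0.581 to 0.0179 for Pcsk6 and -0.0326 to 0.00967 for Pcsk7. The count of genes called over all genes moved more. For hAMSC against Veh it was 32, and 155 by DESeq2, 12 without the robust fit, 0 with the group alone, 52 with no filter, 9 with 2 groups alone, 86 within set A and 94 within set B, and 8 (without Veh 18) to 153 (without hAMSC 15) with 1 library left out. For hAEC against hAMSC it was 3, and 80 by DESeq2, 0 without the robust fit, 0 with the group alone, 26 with no filter, 1 within set A and 58 within set B, and 0 to 50 with 1 left out. For hAEC against Veh it was 0, and 2 by DESeq2, 10 with 2 groups alone, 1 within set A and 6 within set B, and 0 with any 1 left out. The set difference of the hAEC effect had 0, with 23 by DESeq2, 309 with no filter and 0 to 3 with 1 left out; that of the hAMSC effect had 27, with 113 by DESeq2, 17 without the robust fit, 4 by voom, 533 with no filter and 0 to 158 with 1 left out. In the last 2 a lone library was assumed to vary like the others. The cause was not tested. A minimum mean of 5 CPM leaves out Pcsk5, Pcsk6 and Cpe, and within set A the filter leaves out Pcsk6.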
